A study of Mus musculus with 6 samples.

Results

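Junction genes were taken as the protein-coding genes named as numbered cadherins (*Cdh*), protocadherins (*Pcdh*), numbered claudins (*Cldn*) or connexins (*Gja*, *Gjb*, *Gjc* and *Gjd*), together with the numbered *Tjp* genes, *Ocln*, *F11r*, *Jam2*, *Jam3* and *Cgn*. Of the 41721 genes counted, 20461 were protein-coding and 136 met this rule. They had 135 different names, since *Pcdhga8* stands in the table at 2 places, the second with its start between those of *Pcdhgc3* and *Pcdhgc5*. They were described in 8 families: 18 classical cadherins, 5 atypical cadherins, 12 non-clustered protocadherins, 52 clustered protocadherins, 23 claudins, 19 connexins, 3 scaffolds (the *Tjp* genes), and 4 other junction membrane proteins. No gene carried the name *Cgn*.

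RNA was sequenced from cultured aortic smooth muscle cells of mice (MASMCs), taken from the abdominal aorta. The control genotype, *Pdk4*fl/fl, has loxP sites around exons of *Pdk4*, which encodes a mitochondrial kinase that inhibits the pyruvate dehydrogenase complex. In *Pdk4*SMKO mice the same allele is joined to *Myh11*-CreERT2, a tamoxifen-inducible Cre driven by a smooth muscle promoter, and both genotypes received tamoxifen. All cultures were treated with angiotensin II (Ang II, 1 μM for 48 h), so the comparison contains no untreated cells, and 3 libraries were sequenced per genotype. *Pdk4*fl/fl libraries are called control and *Pdk4*SMKO libraries knockout in the values below. The mice of the study are described as males on a C57BL/6J background, and the Cre transgene as Y-linked. The study describes the libraries of each genotype as biological replicates. Whether each came from an animal of its own is not given in the sources used here, and the p-values measure only the spread between these libraries.

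*Pdk4* had 570, 639 and 421 counts in the control libraries and 110, 182 and 141 in the knockout libraries, 35.0 ± 3.07 against 6.93 ± 2.11 CPM (counts scaled to library size, mean ± SD, n = 3), a log2 fold change of -2.34 (edgeR quasi-likelihood test, adjusted p = 4.49e-06). The libraries held between 16526044 and 22481670 counts. *Xist*, a non-coding RNA transcribed from the silenced X chromosome in females, had 3, 4 and 5 counts in control against 610, 347 and 321 in knockout libraries, so that the 3 knockout libraries go against the sex stated for the mice. The table holds 0 genes of the Y chromosome, and *Cldn2*, *Pcdh11x* and *Pcdh19* are the X-linked genes among those tested. Among the smooth muscle markers, *Acta2* was higher in knockout libraries and *Tagln* lower, and *Myh11*, which encodes smooth muscle myosin, had at most 0.757 CPM in control and 2.72 CPM in knockout libraries. Of 8 smooth muscle markers tested, 4 were higher and 3 lower, and their summed level was 785 to 811 CPM in control and 723 to 954 CPM in knockout libraries. Markers of other cell types were counted in the same way. Of 8 mesothelial markers 7 were tested and 7 were higher, from a sum of 74.2 to 99.99 CPM to one of 723 to 1325 CPM. The fibroblast list went from 144 to 176 CPM to 1320 to 2776 CPM, with 3 higher and 1 lower of 7 tested. *Col14a1* and *Dcn*, which encode a collagen and a proteoglycan of connective tissue, held most of that sum, at 101 to 128 CPM in control and 1287 to 2720 CPM in knockout libraries, and the other 6 fibroblast markers summed to 42.6 to 48.4 CPM and 32.5 to 55.7 CPM. All 4 tested endothelial markers were lower, with sums of 82.3 to 114 CPM and 26.9 to 34.6 CPM. Of 7 macrophage markers tested 6 were higher and 1, *Cd68*, lower, with sums of 21.4 to 38.0 CPM and 11.8 to 38.7 CPM. *C1qa*, *C1qb*, *C1qc*, *Adgre1* and *Tyrobp* had 0 counts in every control library. *Upk1b*, *Krt18* and *Wt1* of the mesothelial list had at most 3 there. These genes had enough counts for the test only through the knockout libraries. *Erg* of the endothelial list, with at most 1 count in any knockout library, had them only through control. Over all genes tested, 32.8% were called higher and 26.5% lower. No epithelial marker had enough counts for the test, with a sum of at most 1.76 CPM in any library, *Esrp1* at 0 counts throughout and *Epcam* at 0 or 1. The part of cell make-up or sex in the junction gene values below was not tested, and in bulk RNA a change in the number of cells of a type and a change in RNA per cell cannot be told apart.

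Cells hold together through several kinds of junction. Cadherins are calcium-dependent adhesion receptors, and the classical members form adherens junctions by binding catenins, which connect them to actin. Claudins form the strands of tight junctions, which scaffold proteins of the ZO family anchor to the cytoskeleton, and connexins assemble into gap junction channels that pass ions and small molecules between neighbouring cells. In the vessel wall, smooth muscle cells are known for N-cadherin and for gap junctions made of a few connexins, and tight junctions are typical of endothelium and epithelium rather than of smooth muscle.

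Counts on junction genes made up 0.0772, 0.0696 and 0.0627% of all counts in the control libraries and 0.2466, 0.2661 and 0.2621% in the knockout libraries. After TMM scaling their sum was 861 ± 60.4 CPM in control and 2097 ± 118 CPM in knockout cells, a 2.44-fold difference, and the genotypes did not overlap (p = 0.1 in an exact permutation test, two-sided, and no smaller p is possible with 3 libraries against 3). Of the 136 genes, 16 had 0 counts in every library and 35 had at most 3 counts in every library. A count of 3 corresponded to 0.132 to 0.227 CPM and was taken as the floor, which covers counting error only. Low counts left 65 genes out of the test, and 71 were tested. A gene was called when edgeR's adjusted p was under 0.05 and the fold change at least 2. Among the 71 tested, 54 were called higher and 7 lower in knockout cells and 10 were not called. This is 85.9% called, 76.1% higher and 9.86% lower, where over all 14085 genes tested 59.3% were called, 32.8% higher and 26.5% lower. The median log2 fold change was 3.29 over the tested junction genes and 0.12 over all genes tested. The shares are given as a description, since 19 of the tested genes were at the floor in control and 2 in knockout, so that they passed the filter on low counts only through the genotype in which they were high.

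Genes were also counted by whether the libraries of the genotypes overlapped. Of the 101 junction genes with over 3 counts in any library, 78 had a higher CPM in every knockout library than in any control library (77.2%) and 11 a lower one (10.9%), and in 12 the genotypes overlapped. Among all 18789 genes with over 3 counts in any library, 39.2% were higher in this way and 33.1% lower. These shares are a description as well, since 39 of the 101 genes were at the floor in control alone and 7 in knockout alone and entered the count through the genotype in which they were high. By family, all knockout libraries were above all control libraries for 8 of 11 classical cadherins, 8 of 9 non-clustered protocadherins, 43 of 46 clustered protocadherins, 6 of 12 claudins, 8 of 12 connexins and 2 of 3 other membrane proteins. The atypical cadherins ran the other way, with 0 of 5 higher and 4 of 5 lower. The balance over all genes depended on the scaling, and their median log2 fold change moved from 0.12 under TMM to 0.09 under RLE factors, 0.33 under upper-quartile factors and 0.72 under library size alone. Under library size alone 59 junction genes were called higher and 5 lower, which is 92.2% of called genes higher in place of 88.5%, while over all genes that share moved from 55.3 to 72.1%.

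**Figure D1:**
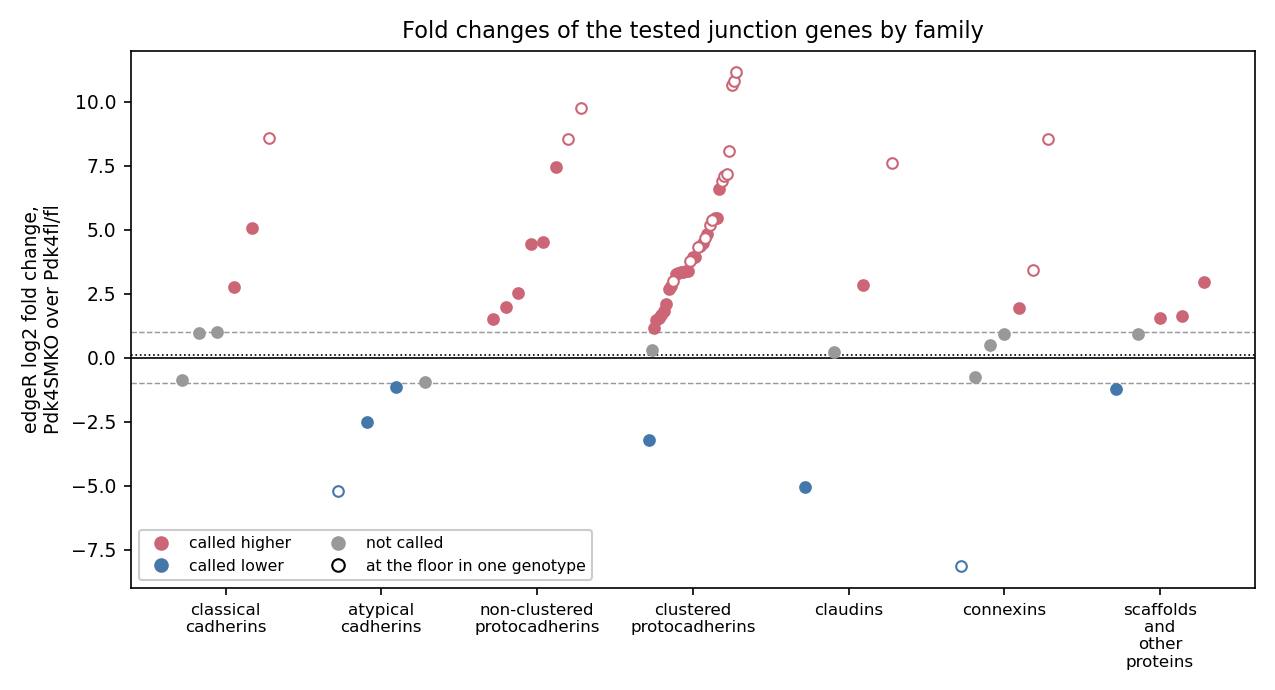
Log2 fold change (y axis, *Pdk4*SMKO over *Pdk4*fl/fl, edgeR) of the 71 tested junction genes by family (x axis, scaffolds and other membrane proteins together), with 1 point per gene coloured by call, dashed lines at a fold of 2 and a dotted line at the median of all genes tested. Open points are genes at the floor in 1 genotype, whose fitted value depends on the prior count and is no bound. Points lie mostly above the dashed line in the protocadherins and below 0 in the atypical cadherins.

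The summed level of each family, over all its genes and with no filter, separated the genotypes in each of the 7 families compared, the scaffolds being left out. The largest ratio was that of the non-clustered protocadherins, at 20.7 ± 2.60 CPM in control and 368 ± 55.7 CPM in knockout cells (17.8-fold), followed by the clustered protocadherins at 37.2 ± 9.35 and 297 ± 74.9 CPM (7.98-fold). Classical cadherins went from 163 ± 13.1 to 415 ± 45.8 CPM. Smaller differences were measured for claudins (24.2 ± 1.46 and 41.3 ± 1.46 CPM), connexins (111 ± 11.7 and 160.4 ± 19.4 CPM) and the other membrane proteins (166 ± 6.05 and 264 ± 9.60 CPM). The atypical cadherins were the family with a lower sum, 231 ± 7.79 against 112 ± 51.6 CPM, and their knockout libraries spread widely, at 55.9, 157 and 123 CPM in replicates 1, 2 and 3. Most of this sum was 1 gene, *Cdh13*, at 209 ± 6.56 and 108 ± 53.9 CPM, which was not called. Of the 4 tested genes of the family 3 were called lower, against 26.5% of all genes tested. Each of these comparisons gave p = 0.1 by the exact permutation test.

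**Figure D2:**
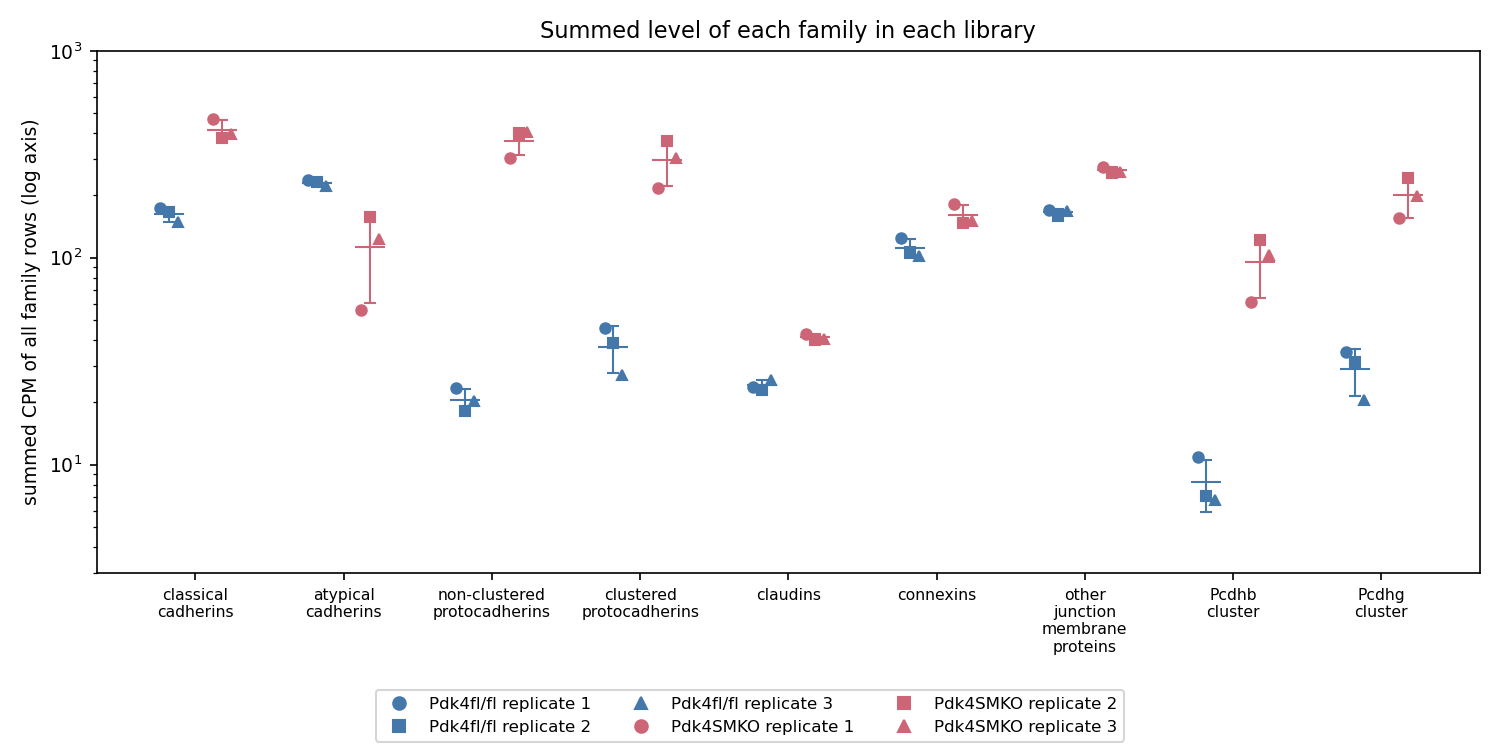
Summed CPM (y axis, log scale) of all genes of 7 families, and of the *Pcdhb* and *Pcdhg* clusters, in each of the 6 libraries. Points are libraries, with the horizontal bar at the mean and error bars of 1 SD (n = 3). The protocadherin families show the widest gap between genotypes, and the atypical cadherins are the only family whose *Pdk4*SMKO libraries lie below the *Pdk4*fl/fl libraries. *Cdh13* holds most of the atypical cadherin sum.

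E-cadherin had the largest fold change of the tested classical cadherins with counts above the floor in both genotypes. *Cdh1*, which encodes this receptor of epithelial adherens junctions, had 47, 44 and 23 counts in control against 1116, 1772 and 2212 in knockout libraries. Every knockout library lay more than 10 times above every control library, and the lowest of them was replicate 1, at 49.0 CPM against 88.2 and 108.5 CPM. The means were 2.43 ± 0.696 and 81.9 ± 30.3 CPM, a 33.7-fold difference and a log2 fold change of 5.06 (SE 0.33, edgeR adjusted p = 3.84e-07). Within the knockout libraries the summed mesothelial markers were highest in replicate 1 (1325, 723 and 828 CPM) and the summed fibroblast markers, mostly *Col14a1* and *Dcn*, lowest there (1320, 2776 and 2563 CPM); their part in the *Cdh1* level was not tested.

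N-cadherin and P-cadherin stood just under the fold limit. *Cdh2*, encoding N-cadherin, the main classical cadherin of smooth muscle, had 1804, 2104 and 1457 counts in control against 6263, 3998 and 4325 in knockout libraries. The genotypes did not overlap, and the means of 115 ± 5.00 and 229 ± 40.6 CPM differed 1.98-fold (log2 fold change 0.99, edgeR adjusted p = 9.44e-05), so that the gene passed the p threshold but not the fold threshold. *Cdh3*, encoding P-cadherin, is the neighbour of *Cdh1* on chromosome 8, 54.1 kb away in the table's annotation. Its counts were 460, 523 and 344 in control and 1668, 1071 and 853 in knockout libraries, a log2 fold change of 0.98 (edgeR adjusted p = 0.000941), again without overlap. The call of both genes changed with the processing. With upper-quartile factors they passed, at 1.20 for *Cdh2* and 1.19 for *Cdh3*, and likewise with library size alone, without the filter or with at least 10 counts in every library. Both also passed without control replicate 1 (1.02 for *Cdh2* and 1.03 for *Cdh3*), knockout replicate 2 (1.09 and 1.03) or knockout replicate 3 (1.05 and 1.16).

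Of the type II cadherins, *Cdh11*, known from mesenchymal cells and bone, had 139, 120 and 16 counts in control against 1326, 664 and 530 in knockout libraries. The control libraries were uneven, with replicate 3 at 1.21 CPM against 9.27 and 6.59 CPM, but all lay below the knockout libraries (5.69 ± 4.10 and 39.1 ± 16.9 CPM, log2 fold change 2.76, edgeR adjusted p = 0.000646). Another gene model, without a name but described as *Cdh11*, lies at a different place on chromosome 8. It starts at base 72418743, and the named gene at base 108398534. This model went the other way, with 289, 321 and 328 counts in control against 168, 139 and 148 in knockout libraries (log2 fold change -1.51). Whether the description is right was not tested. The model was looked up after the values were seen and is not among the 136 genes. *Cdh10*, a cadherin of the nervous system, had 0 counts in every control library and 112, 20 and 40 in the knockout libraries, a level at least 13.3-fold higher against a floor of 3 counts per library. *Cdh24* was not called, at 10.2 ± 1.34 and 5.61 ± 0.467 CPM (log2 fold change -0.87). *Cdh5*, the cadherin that defines endothelial adherens junctions, had at most 1 count in any library, and *Cdh4* had 0, 8 and 2 counts in control against 0 in knockout libraries. Neither was tested. In all, 3 of the 6 tested classical cadherins were higher, 0 lower and 3 not called. Among all genes tested, 32.8% were higher and 26.5% lower.

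The atypical cadherins are the numbered *Cdh* genes outside the classical family. *Cdh13*, encoding T-cadherin, which is held in the membrane by a lipid anchor and is known from vascular cells, was the most abundant of them. It had 3226, 3835 and 2671 counts in control against 1120, 3112 and 2445 in knockout libraries. In CPM the 3 control libraries lay close together (215, 211 and 202 CPM) and the knockout libraries below them and far apart, with replicate 1 at 49.2 CPM and the others at 155 and 120 CPM. The log2 fold change of -0.95 (edgeR adjusted p = 0.0187) did not reach the fold limit, but did so when replicate 2 (-1.30) or replicate 3 (-1.03) of the knockout libraries was left out. Without knockout replicate 1 it was -0.60. *Cdh26*, a cadherin known from epithelia, had 272, 265 and 209 counts in control against 105, 32 and 47 in knockout libraries (16.2 ± 1.82 and 2.84 ± 1.58 CPM, log2 fold change -2.50, edgeR adjusted p = 6.04e-05).

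*Cdh17*, a cadherin of the intestine, had 37, 58 and 28 counts in control against 1, 0 and 3 in knockout libraries, at least 18.2-fold lower. *Cdh23*, a component of the tip links of hair cells, was called lower at 2.70 ± 0.193 and 1.20 ± 0.770 CPM in control and knockout cells (log2 fold change -1.15, edgeR adjusted p = 0.0327). Knockout replicate 1 stood at 2.06 CPM and the others at 0.946 and 0.589 CPM. Leaving out that replicate gave a log2 fold change of -1.80, whereas leaving out any other library gave an edgeR adjusted p between 0.0523 and 0.113, so that the call was lost. It was lost as well with upper-quartile factors (-0.94, edgeR adjusted p = 0.075) and with library size alone (-0.54, edgeR adjusted p = 0.277). *Cdh23* also overlaps *Vsir* in the annotation, and whether the counting used strand is not given in the sources used here.

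Compared per kb of gene length, which allows levels of different genes to be set side by side, the make-up of the *Cdh* genes differed between genotypes. *Cdh13* held 36.9 ± 1.40% of their summed CPM per kb in control and 12.1 ± 6.16% in knockout cells, and *Cdh26* 10.5 ± 0.997 and 1.15 ± 0.611%. *Cdh1* held 1.03 ± 0.230 and 22.3 ± 8.69%, and *Cdh11* 2.30 ± 1.59 and 10.2 ± 4.13%. *Cdh2* held 27.5 ± 0.727 and 34.2 ± 5.17%, the highest mean share in knockout cells. For these 5 genes the libraries of the genotypes did not overlap (p = 0.1 each, exact permutation test), whereas for *Cdh3*, at 14.1 ± 0.189 and 17.4 ± 4.44%, they did. The ratio of *Cdh1* to *Cdh2* per kb, which needs no scaling between libraries, was 0.047, 0.038 and 0.028 in control and 0.322, 0.800 and 0.923 in knockout libraries.

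**Figure D3:**
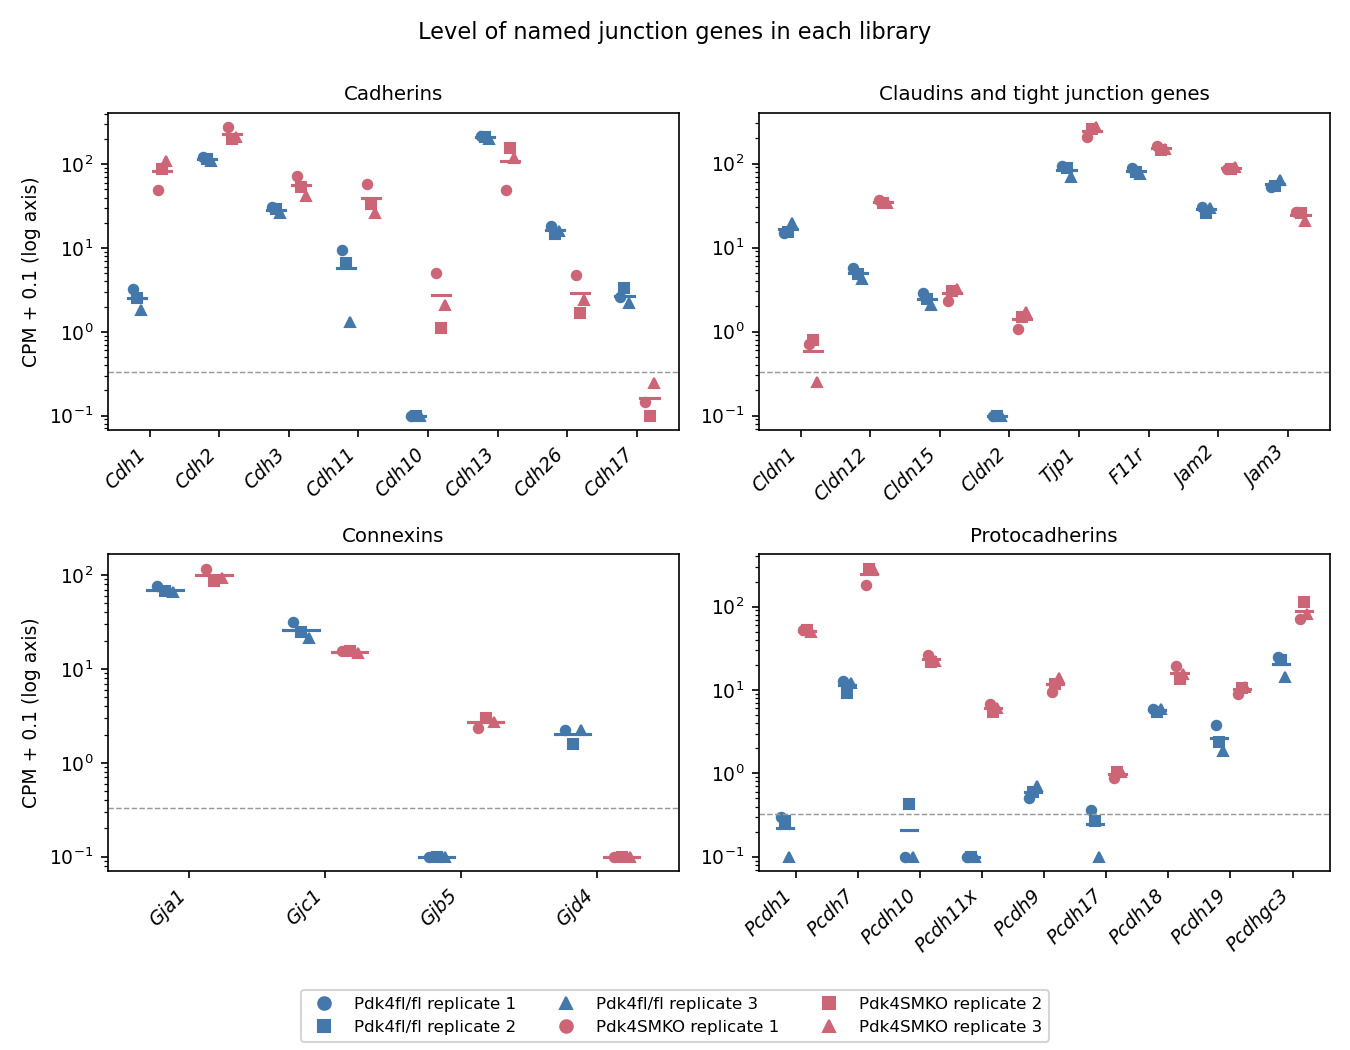
Level of named junction genes in each library (y axis, CPM + 0.1 on a log axis, in 4 panels by family). Circles, squares and triangles are replicates 1, 2 and 3 of each genotype, horizontal bars are means, and the dashed line marks the highest CPM that 3 counts stood for. *Cdh1*, *Cldn12* and the protocadherins lie higher and *Cldn1*, *Cdh17*, *Cdh26* and *Gjd4* lower in *Pdk4*SMKO cells, while *Cdh13* lies lowest in *Pdk4*SMKO replicate 1, at 49.2 CPM.

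Protocadherins are cadherins without catenin binding that are best known from the nervous system, where they take part in sorting and recognition between cells. All 8 tested non-clustered members were called higher, 2 of them from the floor, against 32.8% higher of all genes tested. *Pcdh7*, a large protocadherin also found outside the nervous system, had 192, 166 and 159 counts in control against 4103, 5634 and 5823 in knockout libraries, 11.3 ± 1.94 and 249 ± 59.5 CPM. It was 21.98-fold higher (log2 fold change 4.46, edgeR adjusted p = 6.81e-08), and replicate 1 was again the lowest knockout library, at 180.1 CPM against 280.4 and 286 CPM. Other gene models overlap *Pcdh7* in the annotation. Per kb, *Pcdh7* held 42.0 ± 3.88% of the family's level in control and 62.2 ± 6.98% in knockout cells, while *Pcdh18* held 41.7 ± 2.38 and 8.25 ± 2.78%. *Pcdh1*, known from epithelia of the airways, had 3, 3 and 0 counts in control against 1202, 1040 and 1019 in knockout libraries. The knockout libraries agreed closely, at 51.5 ± 1.41 CPM, at least 261-fold above the floor.

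Further members were at or near 0 counts in control cells. *Pcdh10*, which is known to recruit actin regulators to cell contacts, had 0, 6 and 0 counts in control against 595, 438 and 451 in knockout libraries (log2 fold change 7.44, edgeR adjusted p = 3.91e-07). *Pcdh11x*, on chromosome X, had 0 counts in control against 152, 106 and 122 in knockout libraries, at least 30.3-fold higher. *Pcdh9* went from 6, 9 and 8 counts to 213, 235 and 279. Less steep were *Pcdh18*, with 88, 97 and 76 counts against 438, 267 and 317 (log2 fold change 1.51), and the X-linked *Pcdh19*, with 55, 41 and 23 against 204, 213 and 217 (1.97). *Pcdh17*, the last of the 8, stayed under 1 CPM in every library.

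To show what the start regions of these genes look like, promoter sequences were taken from RefSeq tables of build GRCm38.p6, matched by symbol. Of the 135 names, 57 had an entry, with 74 windows in all, and of the 70 tested names 18 had one. The 250 bases before the start of the transcript were used, 5′ to 3′ on the strand of the gene, and CG dinucleotides, the sites of DNA methylation, are in capitals. *Pcdh10* is shown as the protocadherin with an entry that had the highest fold change, and *Pcdh7* as the member of its family with the highest level in knockout cells.
*Pcdh7*, chr5:57717831-57718080, plus strand: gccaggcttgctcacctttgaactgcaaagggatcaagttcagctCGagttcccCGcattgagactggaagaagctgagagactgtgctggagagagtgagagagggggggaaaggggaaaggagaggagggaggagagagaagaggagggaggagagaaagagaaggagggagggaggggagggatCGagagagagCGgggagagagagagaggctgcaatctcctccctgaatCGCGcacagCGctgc
*Pcdh10*, chr3:45378148-45378397, plus strand: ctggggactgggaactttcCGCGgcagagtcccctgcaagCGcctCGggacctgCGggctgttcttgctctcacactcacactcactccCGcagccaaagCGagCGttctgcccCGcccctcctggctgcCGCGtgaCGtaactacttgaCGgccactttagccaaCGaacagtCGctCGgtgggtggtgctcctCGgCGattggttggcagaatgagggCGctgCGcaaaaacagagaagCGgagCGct
The *Pcdh10* stretch holds 22 CG dinucleotides, more than 85.2% of all 32851 windows, and the *Pcdh7* stretch holds 7, more than 53.7% of them. The median was 17 over the windows of the non-clustered protocadherins and 6 over all windows. The E-box CAGGTG or its reverse complement CACCTG, the sequence that repressors of *Cdh1* of the Snail and Zeb families bind, was found in neither stretch. It occurred in 15 of the 74 junction gene windows (20.3%) and in 17.2% of all windows. These are matches of letters and no measure of binding. *Cdh1* itself had no entry.

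Clustered protocadherins lie in 3 tandem arrays on chromosome 18, alpha, beta and gamma, in which cells choose among many variable first exons. Alpha and gamma transcripts share their last exons within an array, the gene models overlap there, and a count on a single alpha or gamma gene is therefore uncertain, whereas the sum over the array depends less on how shared reads were assigned. The 52 genes summed to 45.8, 38.6 and 27.2 CPM in control and 218, 368 and 304 CPM in knockout libraries. The 9 alpha genes stayed low, with sums of at most 0.0667 CPM in control and 1.32 to 2.24 CPM in knockout libraries. The 22 beta genes, which do not share last exons in this way although *Pcdhb21* and *Pcdhb22* overlap, summed to 8.23 ± 2.29 and 95.0 ± 31.0 CPM (11.5-fold), and the 21 gamma genes to 28.9 ± 7.49 CPM in control and 156 to 244 CPM in knockout libraries (6.91-fold).

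Of 37 tested members of the arrays, 35 were higher, 1 lower and 1 not called, and 13 of the 37 were at the floor in control. Among all genes tested, 32.8% were higher and 26.5% lower. Of 16 tested beta genes 15 were higher, with *Pcdhb17* at the highest level per kb, which had 38, 49 and 22 counts in control against 392, 588 and 504 in knockout libraries, and *Pcdhb14* went from 4, 2 and 0 counts to 202, 310 and 299. *Pcdhb15* was the beta gene without a call (0.652 ± 0.172 and 0.815 ± 0.320 CPM).

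In the gamma array, *Pcdhgc3* had the highest level per kb in both genotypes, with 368, 415 and 190 counts in control against 1617, 2262 and 1674 in knockout libraries (log2 fold change 2.10, edgeR adjusted p = 1.33e-05). Its share of the summed CPM per kb of the clustered genes was 50.8 ± 3.82% in control and 28.7 ± 2.96% in knockout cells (p = 0.1, exact permutation test). *Pcdhgb6*, *Pcdhga7* and the first of the 2 genes named *Pcdhga8* had 0 counts in every control library. Their levels were 15.9 ± 1.66, 10.99 ± 3.41 and 12.3 ± 3.00 CPM in knockout cells, at least 80.4-fold, 55.7-fold and 62.3-fold higher. *Pcdhga11* was the clustered gene called lower, with 62, 59 and 32 counts in control against 4, 9 and 9 in knockout libraries (log2 fold change -3.20, edgeR adjusted p = 6.79e-05).

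Among the claudins, a different gene was in first place in each genotype. *Cldn1*, encoding a sealing claudin best known from the barrier of the skin, had 220, 274 and 257 counts in control against 14, 14 and 3 in knockout libraries. All 3 knockout libraries were under 1 CPM, and the means of 16.4 ± 2.66 and 0.486 ± 0.296 CPM differed 33.7-fold (log2 fold change -5.05, edgeR adjusted p = 8.45e-07). *Cldn12*, encoding a claudin without the usual binding motif for ZO scaffolds, had 85, 87 and 55 counts in control against 833, 680 and 697 in knockout libraries, a rise of 7.16-fold (4.87 ± 0.756 and 34.9 ± 1.49 CPM, log2 fold change 2.84, edgeR adjusted p = 1.75e-07). Per kb, *Cldn1* held 65.8 ± 8.06% of the summed claudin level in control and 1.30 ± 0.791% in knockout cells, and *Cldn12* held 15.1 ± 2.82 and 72.2 ± 2.02% (p = 0.1 for each, exact permutation test).

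The stretch before the start of *Cldn1*, the claudin that fell, is shown in the same way.
*Cldn1*, chr16:26371840-26372089, minus strand: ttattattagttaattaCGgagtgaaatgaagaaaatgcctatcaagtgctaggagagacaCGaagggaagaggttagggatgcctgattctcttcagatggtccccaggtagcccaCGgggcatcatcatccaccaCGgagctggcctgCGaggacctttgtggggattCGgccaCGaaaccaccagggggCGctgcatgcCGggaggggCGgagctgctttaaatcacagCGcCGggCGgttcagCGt
It holds 14 CG dinucleotides, more than 70.6% of all windows, and no E-box of the sequence above.

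Of the other claudins, *Cldn2*, which forms pores for cations and water, had 0 counts in control against 22, 28 and 33 in knockout libraries (at least 6.72-fold higher) and lies on chromosome X. *Cldn15*, known from the intestine, had 42, 42 and 26 counts against 50, 59 and 64 and was not called, at 2.36 ± 0.419 and 2.76 ± 0.497 CPM (edgeR adjusted p = 0.512). *Cldn5*, the claudin of endothelium, had 0 counts in every library. *Cldn11* had 0, 3 and 0 counts in control and 0, 1 and 2 in knockout libraries, and the rest too few for the test. *Cldn3* had 0 counts in control against 19, 2 and 2 in knockout libraries, so that its counts lay mainly in replicate 1.

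Beneath the tight junction, *Tjp1*, encoding the scaffold ZO-1, had 1385, 1625 and 918 counts in control against 4675, 5233 and 5482 in knockout libraries (83.7 ± 12.4 and 245 ± 34.6 CPM, log2 fold change 1.55, edgeR adjusted p = 7e-06). *Tjp3*, encoding ZO-3, had 0, 2 and 2 counts in control and 12, 7 and 4 in knockout libraries and was not tested. A gene without a name whose description gives *Cgn*, cingulin, a tight junction protein that binds ZO scaffolds, was looked up after the values were seen. It had 1500, 1803 and 1098 counts in control against 157, 43 and 47 in knockout libraries, 94.0 ± 9.49 and 3.78 ± 2.70 CPM, or 24.9-fold lower (log2 fold change -4.62, edgeR adjusted p = 1.8e-06), the opposite direction to *Tjp1*.

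The junctional adhesion molecules split. *Jam2*, encoding JAM-B, had 455, 471 and 385 counts in control against 1954, 1714 and 1872 in knockout libraries (28.4 ± 2.31 and 87.6 ± 3.64 CPM, log2 fold change 1.62, edgeR adjusted p = 9.15e-07). *Jam3*, encoding JAM-C, a binding partner of JAM-B, had 790, 977 and 835 counts against 606, 517 and 419 (56.5 ± 5.81 and 24.3 ± 3.27 CPM, log2 fold change -1.22, edgeR adjusted p = 2.76e-05), and this call was lost when library size alone was used for scaling (-0.61). *F11r*, encoding JAM-A, had 1307, 1442 and 998 counts in control libraries and 3710, 2937 and 3021 in knockout libraries. It was higher in every knockout library (80.6 ± 5.93 and 152 ± 9.13 CPM) but not called at a log2 fold change of 0.92, and it was called with upper-quartile factors (1.13), library size alone (1.52) or at least 10 counts in every library (1.02). *Ocln*, encoding occludin, a membrane protein of tight junctions, had 0 counts in 5 libraries and 1 in the other.

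**Figure D4:**
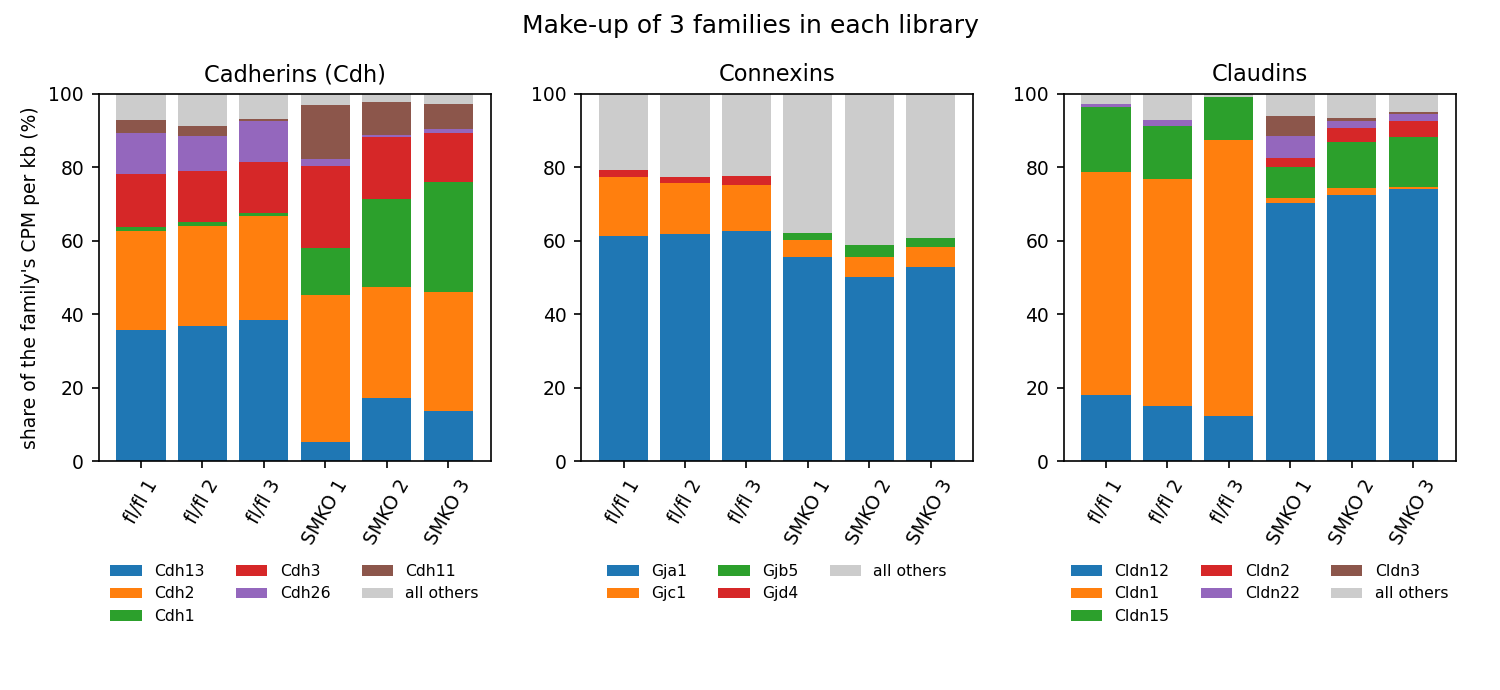
Share (y axis, percent) of each family's summed CPM per kb held by the genes named in the legend in each of the 6 libraries, for the cadherins, connexins and claudins, with all other genes of the family in grey. *Cldn1* leads the claudins in the *Pdk4*fl/fl libraries and *Cldn12* in the *Pdk4*SMKO libraries, *Cdh1* takes 12.9 to 30.0% of the cadherins in *Pdk4*SMKO, and *Gja1* stays the leading connexin throughout.

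*Gja1*, the usual connexin of cultured smooth muscle, had the highest level per kb of the connexins in both genotypes. It had 1138, 1217 and 871 counts in control against 2669, 1745 and 1896 in knockout libraries, 69.5 ± 5.50 and 99.01 ± 16.0 CPM. The libraries did not overlap, but the log2 fold change of 0.51 (edgeR adjusted p = 0.0072) was under the fold limit, and among the other scalings, filters and tests run at that fold limit the gene was called with library size alone (1.12). Its share of the summed connexin level per kb was 62.0 ± 0.705% in control and 52.9 ± 2.75% in knockout cells (p = 0.1, exact permutation test), a difference that shrank to -1.25 percentage points (p = 0.6) when lengths were not used. *Gjc1*, another connexin of vascular smooth muscle, had 476, 444 and 279 counts in control against 351, 309 and 303 in knockout libraries and was not called (log2 fold change -0.76). *Gja4* and *Gja5*, the connexins shared by endothelium and smooth muscle of arteries, were not tested. *Gja4* had 2, 5 and 3 counts in control and 4, 2 and 1 in knockout libraries, and *Gja5* had 1, 3 and 0 against 16, 9 and 6.

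Among the connexins of the beta group, best known from skin and other epithelia, *Gjb5* had 0 counts in control against 51, 59 and 53 in knockout libraries, at least 13.1-fold higher. Every knockout library lay above the floor. *Gjb2* had 0, 2 and 0 counts against 26, 9 and 10 and was not tested. Per kb, *Gjc1* held 14.1 ± 1.73% of the connexin level in control and 5.09 ± 0.499% in knockout cells, without overlap (p = 0.1, exact permutation test).

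The stretch before the start of *Gjb5*, which had 0 counts in the control libraries, is shown for comparison with the protocadherins above.
*Gjb5*, chr4:127358165-127358414, minus strand: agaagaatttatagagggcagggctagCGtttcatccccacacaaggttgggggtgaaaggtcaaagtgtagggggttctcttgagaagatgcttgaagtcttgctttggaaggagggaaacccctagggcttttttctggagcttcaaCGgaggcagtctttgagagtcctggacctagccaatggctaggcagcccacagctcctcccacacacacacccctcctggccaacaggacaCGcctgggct
It holds 3 CG dinucleotides, more than 29.0% of all windows, and no E-box of the sequence above.

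*Gjd4*, a connexin of developing skeletal muscle, was the connexin called lower, with 32, 27 and 28 counts in control against 0 in every knockout library, at least 13.4-fold lower. In all, 3 of 7 tested connexins were higher, 1 lower and 3 not called, against 32.8% higher and 26.5% lower of all genes tested.

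Genes whose products work with these proteins were counted from a list of 72 partners, of which 70 were found by name and 51 tested. Of these 12 were higher, 13 lower and 26 not called, where 32.8% of all genes were called higher and 26.5% lower. Among the catenins, which bind classical cadherins or connect them to actin, *Ctnnb1*, encoding β-catenin, was not called at 746 ± 38.1 and 891 ± 55.6 CPM, nor was *Ctnna1*, encoding α-catenin, at 496 ± 25.6 and 537 ± 44.7 CPM. *Ctnnd1*, encoding p120-catenin, had no named gene, and the unnamed gene described as such had 0 counts in every library. That gene overlaps other counted gene models, *Tmx2* among them. Whether its reads were left out or assigned elsewhere was not tested, so the 0 counts are no measure of *Ctnnd1* level. *Jup*, encoding plakoglobin (γ-catenin), which serves both adherens junctions and desmosomes, had 863, 1200 and 579 counts in control against 3221, 2329 and 2636 in knockout libraries (log2 fold change 1.21, edgeR adjusted p = 5.88e-05). The nectins, immunoglobulin-like receptors of adherens junctions, split, with *Nectin1* and *Nectin2* not called (*Nectin2* was higher with library size alone, with upper-quartile factors and without control replicate 2), *Nectin3* higher (10.1 ± 0.521 and 38.2 ± 2.99 CPM) and *Nectin4* lower (14.7 ± 3.29 and 0.137 ± 0.112 CPM).

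In the desmosome list *Pkp1*, a plakophilin of stratified epithelia, was lower, from 1186, 1351 and 642 counts to 76, 22 and 20 (log2 fold change -5.19). *Dsp*, encoding desmoplakin, had no named gene, and the unnamed gene described as such, looked up afterwards, had 19, 23 and 4 counts in control against 1436, 336 and 356 in knockout libraries, highest in replicate 1. The desmosomal cadherins *Dsg2*, *Dsc2* and *Dsc3* had 0 counts in control libraries and were not tested. In knockout libraries *Dsc2* had 45, 3 and 11 counts, highest in replicate 1, and *Dsg2* and *Dsc3* had at most 3 in any library. Of the 18 tested tight junction partners 4 were higher, such as *Cxadr* (56.9 ± 3.95 and 332 ± 44.0 CPM) and *Marveld1* (12.1 ± 1.80 and 102 ± 12.8 CPM), and 6 lower, such as the polarity genes *Pals1* (110.5 ± 2.21 and 28.3 ± 1.15 CPM) and *Patj* (17.8 ± 1.25 and 7.92 ± 0.722 CPM, a call lost with library size alone and with upper-quartile factors) and *Magi2* (24.7 ± 1.95 and 7.64 ± 0.668 CPM).

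The large cadherins outside the rule had 5 higher and 1 lower of 10 tested, against 32.8% higher and 26.5% lower of all genes tested. *Fat1*, a giant cadherin that restrains growth and organizes actin, had 3123, 2759 and 1413 counts in control against 25193, 23963 and 22302 in knockout libraries (log2 fold change 2.86, edgeR adjusted p = 1.13e-06). *Celsr1* and *Celsr2*, cadherins of planar cell polarity, had 6, 10 and 2 and 6, 13 and 2 counts in control against 137, 128 and 178 and 196, 263 and 176 in knockout libraries. *Panx1*, which forms channels that resemble those of connexins, had 7, 5 and 9 counts against 324, 231 and 260 (log2 fold change 4.79, edgeR adjusted p = 3.4e-07).

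Of 9 tested transcription factors that act on *Cdh1*, 0 were higher, 4 lower and 5 not called. Of all genes tested, 32.8% were called higher and 26.5% lower. The list mixes repressors of *Cdh1* with other factors. *Grhl2*, from the same list, had 13, 19 and 6 counts in control against 0, 4 and 1 in knockout libraries and was not tested. *Snai2*, a repressor of *Cdh1*, had 2427, 2897 and 2506 counts in control against 218, 205 and 289 in knockout libraries. The libraries of each genotype agreed closely, and the means of 170.2 ± 16.9 and 11.3 ± 2.50 CPM differed 15.04-fold (log2 fold change -3.91, edgeR adjusted p = 4.32e-08). *Zeb1* and *Zeb2*, also repressors, were lower at log2 fold changes of -1.19 and -1.01, close to the fold limit. Both calls were lost with upper-quartile factors (-0.98 for *Zeb1* and -0.80 for *Zeb2*) and with library size alone (-0.59 and -0.41). *Zeb2* also fell short of the limit without the filter (-0.96), with at least 10 counts in every library (-0.91) and without control replicate 1 (-0.95), control replicate 2 (-0.95) or knockout replicate 1 (-0.90). *Ovol1*, which is known to oppose the Zeb factors, was lower as well, at 0.881 ± 0.0505 and 0.247 ± 0.148 CPM, and was not called with library size alone (log2 fold change -1.19, edgeR adjusted p = 0.0541). *Snai1* was not called, with 4.55 ± 0.734 and 4.57 ± 1.60 CPM. *Twist1* (17.1 ± 1.10 and 24.6 ± 3.67 CPM) and *Twist2* (2.84 ± 0.978 and 5.07 ± 1.18 CPM) were higher in every knockout library. Neither was called, at log2 fold changes of 0.52 and 0.82. *Twist1* was called higher with library size alone (1.13). *Twist2* was called higher with library size alone (1.42), with upper-quartile factors (1.03) and without control replicate 2 (1.13). Whether these factors bear on the *Cdh1* level was not tested.

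**Figure D5:**
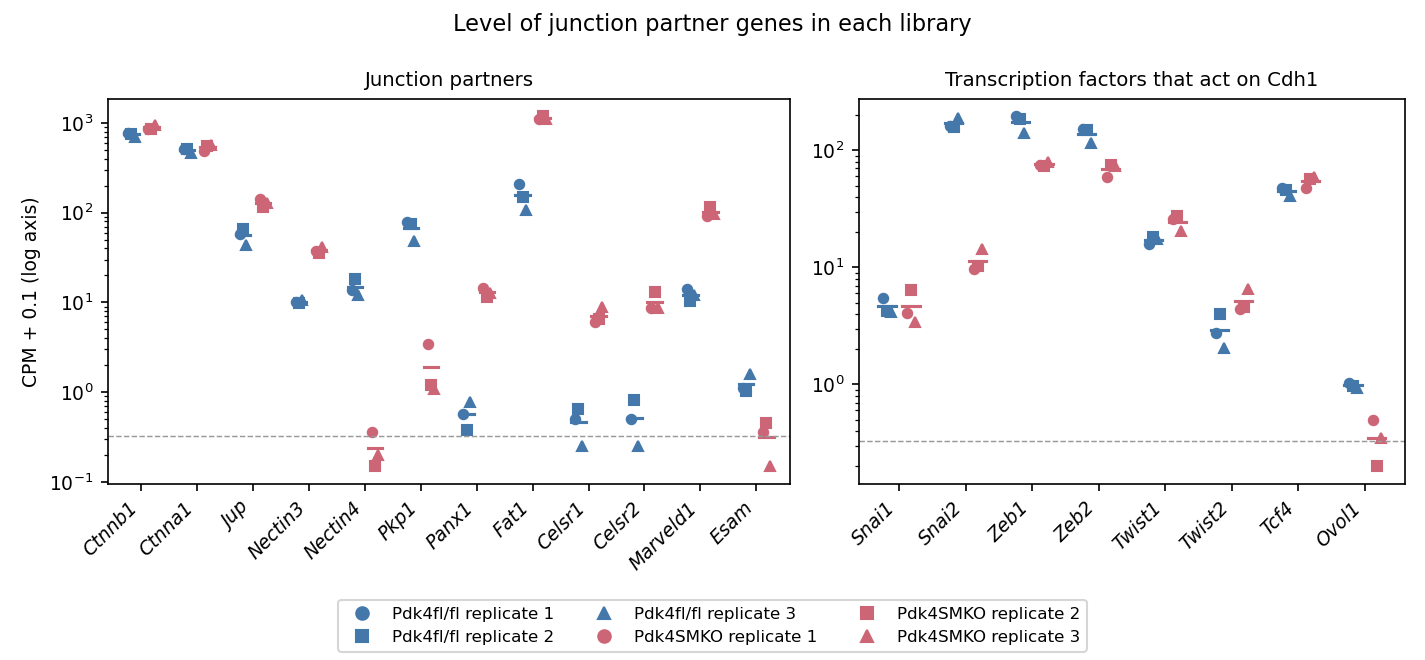
Level of junction partner genes (left) and of transcription factors that act on *Cdh1* (right) in each library (y axis, CPM + 0.1 on a log axis). Symbols are replicates of each genotype, horizontal bars are means, and the dashed line marks the highest CPM that 3 counts stood for. *Snai2*, *Zeb1* and *Zeb2* lie lower and *Fat1*, *Panx1*, *Celsr1* and *Celsr2* higher in *Pdk4*SMKO cells, while *Ctnnb1*, *Ctnna1* and *Snai1* lie close together. *Twist1* and *Twist2* lie somewhat higher in every *Pdk4*SMKO library, and neither was called.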

How the data were processed

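RNA of 6 MASMC cultures was sequenced as paired-end reads. The authors deposited raw read counts per gene for each library, whole numbers without normalization. The submitters' processing notes name the build GRCm39, while 41096 of the 41721 identifiers belong to Ensembl's C57BL/6NJ annotation, and the aligner, counter and strand setting are not given in the sources used here. The labels name a SMARTER kit for the libraries and the study's methods another. Chromosomes, distances and gene lengths are those of the table, except for the printed promoters.

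Differential expression was tested with edgeR 4.0.16 under R 4.3.3 (filterByExpr, TMM factors, quasi-likelihood test on genotype, Benjamini-Hochberg adjustment over 14085 genes). DESeq2 1.42.0, the study's own tool, was an alternative, as were other scalings, filters and thresholds. CPM values use TMM factors, and exact permutation tests of single genes used log2(CPM + 1). The test was tried on simulated counts. Libraries of a genotype differed by more than sampling noise in every pair. Genes without a name held 4.56 to 7.39% of counts and stayed in library sizes and tests. *Pals1* and *Patj* were matched by older symbols.

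The genes and lists described were chosen with earlier results of these data known. Values in every library are given for a set of vascular, epithelial and protocadherin genes and, per family, for up to 3 called genes in each direction by fold change, with no overlap and a mean CPM of 1 or more in whichever genotype was higher. Other members given with values were picked after these were seen. Of the marker lists, the 6 Schwann and neural genes had 1 higher and 1 lower of 4 tested. Some connexin and scaffold results are not reported here.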

Additional observations from a re-analysis of the deposited data

How the results depend on the processing

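With 3 libraries per genotype, 1 treatment and no vehicle control, the values describe these cultures alone, and 3 counts stood for 0.132 to 0.227 CPM, which limits low members. No named member, share or summed level turned its direction under the alternatives run. The balance of the partners did turn. It went from 12 higher and 13 lower to 14 and 10 with upper-quartile factors and to 17 and 7 with library size alone. The numbers of junction genes called, 54 higher and 7 lower, stayed within 1.5 times under DESeq2, scaling by RLE or upper-quartile factors or by library size, no filter, no fold threshold, a fold of 4 and protein-coding genes alone. Requiring at least 10 counts in every library left 20 higher and 3 lower with a median log2 fold change of 1.63, moved the named members called from 27 to 17 and the partners from 12 to 7 higher and from 13 to 8 lower, since genes near 0 in either genotype are not tested there. Library size alone gave a median of 3.89, 7 partners lower and a log2 difference of 3.60 rather than 3.00 for the summed clustered protocadherins. A fold of 4 left 4 partners lower. In alternatives added after seeing the data, leaving out the clustered protocadherins left 19 higher with a median of 1.59, and adding the unnamed genes described as members gave 54 higher and 9 lower. Without length scaling, the difference in the share of *Gja1* was -1.25 in place of -9.05 percentage points and that of *Cdh2* 14.1 in place of 6.70, and the cause was not tested. Leaving out each library in turn gave 54 to 59 higher, 6 to 7 lower and a median of 2.94 to 3.43.

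The labels do not say that replicate numbers pair the cultures, and deviations of libraries with the same number correlated at 0.0396, 0.0604 and 0.176. With the replicate number as a block, 53 junction genes were higher and 8 lower with a median of 3.22, and among the named members the call of *Cdh13* (-1.09) was the one that changed.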
